A study of Mus musculus with 6 samples.

Results

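The core of Polycomb repressive complex 2 (PRC2) was followed through 6 genes: the catalytic Ezh2 and its paralogue Ezh1, and the partners Eed, Suz12, Rbbp4 and Rbbp7. They were chosen by symbol, matched to the Ensembl identifiers of the deposited table, and all 6 were found among its 22933 genes. The cells of every library came from mouse embryonic stem cells with floxed Ezh2 alleles (Ezh2 fl/fl). They were grown on gelatin with serum, serum replacement and leukaemia inhibitory factor. The untreated group (n = 3 libraries) is labelled Ezh2 wild type and carries the floxed alleles. The other group (n = 3), labelled Ezh2 KO, received 800 nM 4-hydroxytamoxifen for 96 h, and its RNA was taken 4 days after treatment. Its columns are named for the deleted genotype (dd, delta/delta), so the groups differ in both genotype and drug. The Cre driver and the floxed exons are not given in the sources used here. No library of drug-treated cells without floxed alleles was analysed here, so an effect of the drug itself cannot be told apart from an effect of the deletion. The labels do not say whether the 3 libraries of a group came from separate cultures, so the p-values measure the spread between these libraries, which may be technical.

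PRC2 places methyl groups on lysine 27 of histone H3, a mark of silenced developmental genes. The SET domain that transfers the methyl groups sits in Ezh2 or Ezh1, but the enzyme is active only when bound to Eed, which reads the methylated histone tail, and to Suz12, the scaffold. Rbbp4 and Rbbp7 are WD-repeat histone chaperones that PRC2 shares with the NuRD and Sin3 deacetylase complexes and with chromatin assembly and remodelling factors. Ezh2 is typical of dividing cells such as embryonic stem cells, while Ezh1 is known for its role in resting and differentiated tissue.

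The 2 paralogue pairs were first compared by sequence, because genes that share long stretches could share reads. The stretches below hold the longest run common to the coding sequences of each pair, with 10 bases on each side. They were read from GENCODE vM21 transcripts, positions count from 1 at the A of the start codon, and capitals mark bases that are the same in both genes.
Ezh2 coding bases 2193 to 2229: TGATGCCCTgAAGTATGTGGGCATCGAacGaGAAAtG
Ezh1 coding bases 2205 to 2241: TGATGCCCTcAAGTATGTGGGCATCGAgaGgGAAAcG
Rbbp4 coding bases 354 to 393: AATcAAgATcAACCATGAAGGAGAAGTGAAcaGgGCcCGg
Rbbp7 coding bases 351 to 390: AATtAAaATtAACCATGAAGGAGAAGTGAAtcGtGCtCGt
The longest shared run was 17 bases for Ezh2 and Ezh1, close to the end of both coding sequences. It was 20 bases for Rbbp4 and Rbbp7. Over the aligned coding sequences 70.4% of bases were identical between Ezh2 and Ezh1, and 68.8% of the encoded residues. Rbbp4 and Rbbp7 shared 78.4% of bases but 90.3% of residues, so their proteins are closer to each other than their transcripts. No window of 30 bases was common to the 2 members of either pair, so an exact match of that length tells the paralogues apart.

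Other annotated genes did share sequence with the members. None of the 30-base windows of the Ezh1 transcript, and 2.32% of those of Ezh2, occurred in a transcript of another gene, in Ezh2 all from the antisense RNA Gm26625. For Suz12 the share was 4.42%, mostly from the antisense Gm26563 with some from the processed pseudogene Gm14752. For Eed it was 11.4%, all from the antisense RNA E230029C05Rik. Rbbp7 had 22.3%, from the pseudogene Gm6382 and from Txlng, which overlaps it on the opposite strand. Rbbp4 had 39.7%, spread over 236 genes but led by its opposite-strand neighbours Gm26722 (17.6%) and Sync (16.6%). Sync carried 18 to 61 reads a library and Txlng 24 to 138. The kit was a directional one, but the strand setting of the counting and the handling of reads with several matches are not given in the sources used here, so the values of Rbbp4 and Rbbp7 are less certain than those of Ezh2, Ezh1 and Suz12.

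Depth differed between libraries. Each deposited value above 0 could be written with a pair of whole numbers, and 1 of them was read as the gene's number of reads, an inference that no source used here states. Its totals varied from 2334448 to 5689666 a library, while those of the other number lay between 4523627 and 4548532. Everything below on recovered reads, RPM, RPKM and Poisson intervals rests on this reading. The 10 most abundant genes took 20.2% to 36.7% of them. The groups were compared by limma on log2(deposited value + 1). Genes averaging under 10 were left out, 17427 were tested, and calls were made below 0.05 after Benjamini-Hochberg adjustment. By this test 34 genes (0.195%) were called, 22 higher and 12 lower, and on recovered reads scaled to library depth (RPM) 6 higher and 0 lower. All 10 embryonic stem cell markers were measured, with summed values of 80052 to 114377 in untreated and 87609 to 91767 in tamoxifen libraries. Primitive endoderm markers stood at 8721 to 11993 against 20001 to 22728, with 9 of 10 above 0 in log2 fold change and none called; Lamb1 (0.95), Col4a1 (1.27), Pdgfra (1.33) and Gata4 (1.43) had limma adjusted p between 0.0861 and 0.164. Trophoblast markers stood at 7104 to 8750 against 12425 to 14398, with 9 of 9 tested above 0 and none called. Of those 9, 5 averaged 10 reads or more. The fibroblast markers summed to 648 to 1145 against 831 to 1222, and Lum was at 0 in all libraries. Neural markers summed to 3671 to 4337 against 3573 to 3872, with 7 of 8 tested above 0 and none called. Only 3 of those 8 averaged 10 reads or more, and on recovered reads scaled by trimmed means 4 were above and 4 below 0. The part of other cell types in the values below was not tested, and in bulk RNA fewer cells of a type and less RNA per cell cannot be told apart.

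On deposited values Ezh2 and Ezh1, the 2 catalytic genes, were lowest relative to the untreated group, at 65.9% and 64.8% of its mean. Rbbp7 was next at 76.6%. Of the partners that the enzyme needs, Eed stood at 102% and Suz12 at 89.6%, with intervals that include no difference. This order varied with the scale. On recovered reads scaled by trimmed means, Rbbp4 had the lowest log2 fold change (-0.433), close to Ezh2 (-0.428) and Ezh1 (-0.426). None of the 6 members was called by limma, on deposited values or on recovered reads. At an unadjusted p under 0.05, 2 of the 6 were lower (Ezh2 and Ezh1), against 3.99% of all genes tested. Ezh1 lost this in 4 of the 6 cases when 1 library was left out (untreated replicate 1 or 3, tamoxifen replicate 1 or 2), and on recovered reads 0 of the 6 met it, with either scaling. In 3 of the 6 (Ezh2, Ezh1 and Rbbp7) every tamoxifen value lay below every untreated value, against 7.33% of all genes tested, and no member showed the opposite. On RPM without further scaling this held for 0 of the 6, against 1.25% of all genes tested. The median log2 fold change of the 6 was -0.31, beside -0.0037 over all genes tested. These counts and the median include Ezh2, the gene targeted by the deletion, so they are not independent of the design.

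**Figure D1:**
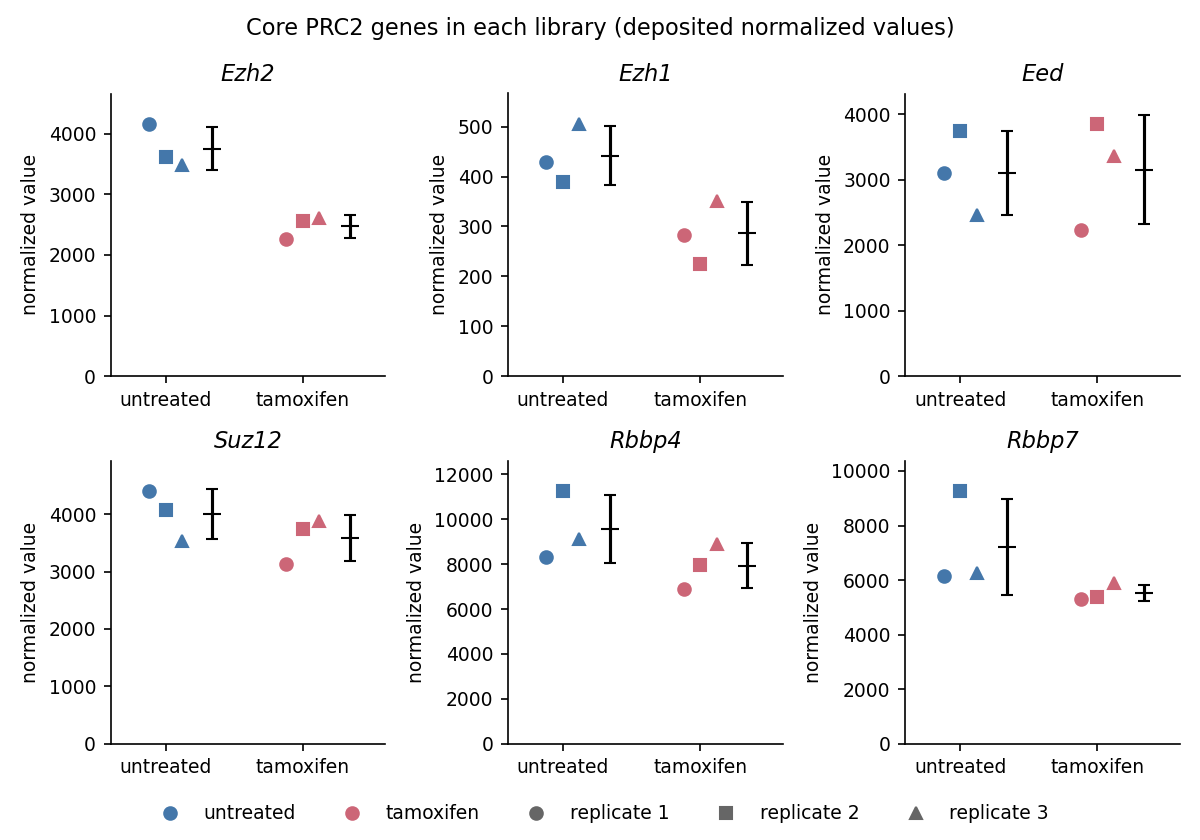
Deposited normalized value (linear axis from 0) of each core PRC2 gene in the 3 untreated and 3 tamoxifen libraries; symbols give the replicate, and black bars the mean ± SD. The groups are separate for Ezh2, Ezh1 and Rbbp7 and overlap for Eed, Suz12 and Rbbp4.

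Ezh2 (ENSMUSG00000029687, GRCm38 chromosome 6, 47530139 to 47595341, minus strand) is the gene that the group labels name. Its deposited values were 4165, 3620 and 3483 in untreated replicates 1 to 3, and 2258, 2559 and 2609 in tamoxifen replicates 1 to 3. The highest tamoxifen library was below the lowest untreated library, yet no library came near 0. These values rest on 694, 557 and 181 reads in untreated and 277, 288 and 520 in tamoxifen libraries, and the lowest count has an exact 95% Poisson interval of 156 to 209, which covers counting error only. The mean was 65.9% of the untreated mean, with a log2 fold change of -0.60 ± 0.12 (SE) and a 95% interval from -0.88 to -0.32. That interval corresponds to levels between 0.543 and 0.802 of untreated. The limma adjusted p was 0.195, and 162 genes had a smaller p. By exact permutation of the libraries (two-sided) p was 0.1, the lower limit for 3 against 3. The table has 1 value per gene and none per exon, so a transcript without the floxed exons cannot be told apart from a full one, and the value does not measure how far the deletion went.

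The difference was smaller and less certain on the recovered reads. Scaled by trimmed means, Ezh2 stood at 159, 103 and 99.3 RPM in untreated and 82.1, 95.1 and 85.2 in tamoxifen libraries. The groups were still separate, but by a small gap, and untreated replicate 1 stood apart. The log2 fold change was then -0.43 (95% interval -0.91 to 0.06, limma adjusted p 0.674). The deposited -0.60 differed from it by -0.17, and what this difference stems from was not tested. Without scaling, RPM were 180, 97.9 and 67.6 against 72.0, 123 and 102, and the groups overlapped. The log2 fold change on plain RPM was -0.13 (95% interval -0.96 to 0.70). On that scale the median of all genes was shifted by 0.25 on the log2 scale, and relative to it Ezh2 was at -0.38.

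Ezh1 (ENSMUSG00000006920, chromosome 11, 101191115 to 101226463, minus strand), the paralogue that can replace Ezh2 in the complex, was not higher in the tamoxifen libraries. Its values were 429, 390 and 506 in untreated and 283, 224 and 351 in tamoxifen libraries. All 3 tamoxifen values were lower than the untreated ones, as they were for Ezh2. The log2 fold change was -0.64 ± 0.24 (SE), with a 95% interval from -1.21 to -0.07 and a limma adjusted p of 0.509. Ezh1 was the most thinly covered member, with 39 to 117 reads a library. The lowest count, in tamoxifen replicate 2, has an exact Poisson interval of 27.7 to 53.3 reads. With trimmed-mean scaling of the reads its log2 fold change was -0.43, and the groups overlapped (22.4, 18.6 and 23.0 against 16.0, 12.9 and 19.2 RPM).

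Ratios within a library show unequal change of 2 genes, and any factor common to a library cancels in them. The deposited values also carry a factor of each gene in each library, so ratios are given on recovered reads too. Untreated libraries had a log2 Ezh1 to Ezh2 ratio of -3.09 ± 0.27 and tamoxifen libraries one of -3.13 ± 0.33 (SD, n = 3 each), a difference of -0.04. On recovered reads the difference was -0.00015. For deposited values the exact two-sided permutation p was 0.9, and Benjamini-Hochberg adjustment over the 6 ratios tested gave 0.9. Per kilobase of annotated exon, Ezh1 made up 11.2%, 14.0% and 17.2% of the summed Ezh1 and Ezh2 reads in untreated replicates 1 to 3. In tamoxifen replicates 1 to 3 it made up 14.9%, 10.8% and 16.8%. The ranges of the groups overlapped almost fully, with means of 14.2% ± 3.0 and 14.2% ± 3.0 (SD, n = 3 each). In tamoxifen libraries the Ezh2 reads may include transcripts without the floxed exons. These ratios and shares therefore do not give the balance of intact transcripts.

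Eed (ENSMUSG00000030619, chromosome 7, 89954654 to 89980983, minus strand) encodes the subunit that binds methylated lysine 27. Its values were 3095, 3747 and 2461 in untreated and 2229, 3853 and 3367 in tamoxifen libraries. The groups overlapped fully, and the lowest and the highest library were both tamoxifen libraries. The log2 fold change was 0.0063 ± 0.25 (SE), with a 95% interval from -0.60 to 0.61 and a limma adjusted p of 1.0. That interval spans levels from 0.660 to 1.53 of untreated. The sign changed with trimmed-mean scaling of the reads (-0.09) and when single libraries were left out.

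Suz12 (ENSMUSG00000017548, chromosome 11, 79993106 to 80034123, plus strand) encodes the scaffold that holds the enzyme and its accessory factors. Its values were 4399, 4068 and 3541 in untreated and 3134, 3747 and 3874 in tamoxifen libraries. Only tamoxifen replicate 1 lay below all untreated libraries. The log2 fold change was -0.16 ± 0.13 (SE), with a 95% interval from -0.48 to 0.16 and a limma adjusted p of 0.765.

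On deposited values the ratio of Ezh2 to Suz12 had the smallest SD within each group among the 6 ratios. It stood at 0.947, 0.890 and 0.984 in untreated libraries. It was 0.721, 0.683 and 0.674 in tamoxifen libraries. The groups were separate and each was tight, at a log2 ratio of -0.09 ± 0.07 against -0.53 ± 0.05 (SD, n = 3), a difference of -0.44. On recovered reads the ratios were 0.957, 0.989 and 1.18 against 0.879, 0.793 and 0.802. The groups were again separate, with a log2 difference of -0.33. Of the 6 ratios this was the only one whose groups were separate, on either scale. How often the ratios of other gene pairs separate in this way was not counted. The exact permutation p was 0.1 on both scales, the smallest possible, so no ratio could pass 0.05 in this design. For deposited values it was 0.4 after Benjamini-Hochberg adjustment over the 6 ratios. Leaving out 1 library at a time gave differences from -0.48 to -0.41.

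The ratio of Ezh2 to Eed was 1.35, 0.966 and 1.42 in untreated and 1.01, 0.664 and 0.775 in tamoxifen libraries. The log2 difference of -0.61 was larger than that for Suz12, but untreated replicate 2 lay below tamoxifen replicate 1 (exact permutation p = 0.2, adjusted 0.4). On recovered reads the log2 difference was -0.34.

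**Figure D2:**
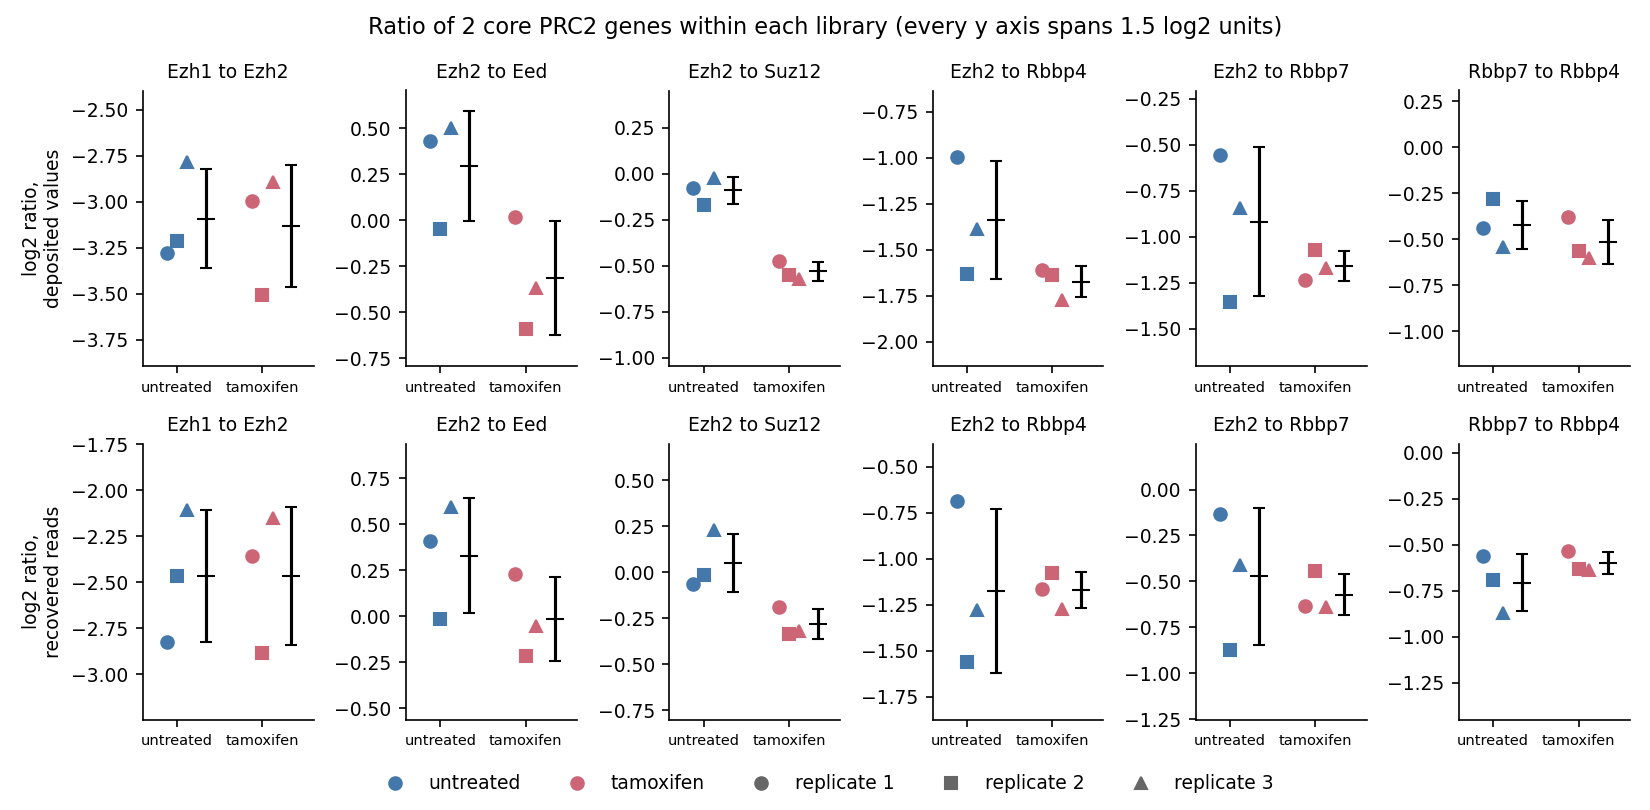
Log2 ratio of 2 core PRC2 genes within each library, from deposited values (top) and recovered reads (bottom); symbols give the replicate, black bars the mean ± SD, and every axis spans 1.5 log2 units. Only the ratio of Ezh2 to Suz12 separates the groups, in both rows.

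Rbbp4 (ENSMUSG00000057236, chromosome 4, 129307100 to 129335370, minus strand) had the most reads of the members, 440 to 1645 a library. Its values were 8321, 11250 and 9108 in untreated and 6909, 7979 and 8914 in tamoxifen libraries. Tamoxifen replicate 3 lay above untreated replicate 1, so the groups overlapped. The log2 fold change was -0.26 ± 0.16 (SE), with a 95% interval from -0.65 to 0.12 and a limma adjusted p of 0.665. On trimmed-mean scaled RPM it stood at 256, 303 and 241 in untreated and 184, 201 and 206 in tamoxifen libraries. There the groups were separate and the log2 fold change of -0.43 equalled that of Ezh2 to 2 decimals. On this scale 2 of the 6 members (Ezh2 and Rbbp4) had all tamoxifen values below all untreated values, against 7.20% of the genes tested.

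Rbbp7 (ENSMUSG00000031353, chromosome X, 162760402 to 162779092, plus strand) had values of 6131, 9255 and 6256 in untreated and 5313, 5391 and 5878 in tamoxifen libraries. The groups were separate, but untreated replicates 1 and 3 lay close above the tamoxifen libraries and untreated replicate 2 far above. The log2 fold change was -0.36 ± 0.18 (SE), with a 95% interval from -0.79 to 0.08 and a limma adjusted p of 0.592. Without untreated replicate 2 it was -0.17, and that library also held the highest value of Rbbp4, whose change without it was -0.14.

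The ratio between the 2 chaperones overlapped between the groups. Untreated libraries had a log2 Rbbp7 to Rbbp4 ratio of -0.42 ± 0.13, and tamoxifen libraries one of -0.52 ± 0.12 (SD, n = 3), a difference of -0.09 (exact permutation p = 0.5, adjusted 0.6). On recovered reads the difference was 0.11. Ezh2 relative to Rbbp4 differed by -0.34 on deposited values (exact permutation p = 0.2, adjusted 0.4) but by 0.0053 on recovered reads. Relative to Rbbp7 it differed by -0.24 (exact permutation p = 0.4, adjusted 0.6), and by -0.10 on recovered reads. Single libraries moved both deposited differences, to -0.16 and -0.06 without untreated replicate 1 and to -0.48 and -0.46 without untreated replicate 2. Whether Ezh2 differed more than the chaperones therefore varied with the scale and with those libraries. Its ratio to Suz12 was lower on both scales. On deposited values that ratio had an adjusted permutation p of 0.4, the same as for Rbbp4.

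**Figure D3:**
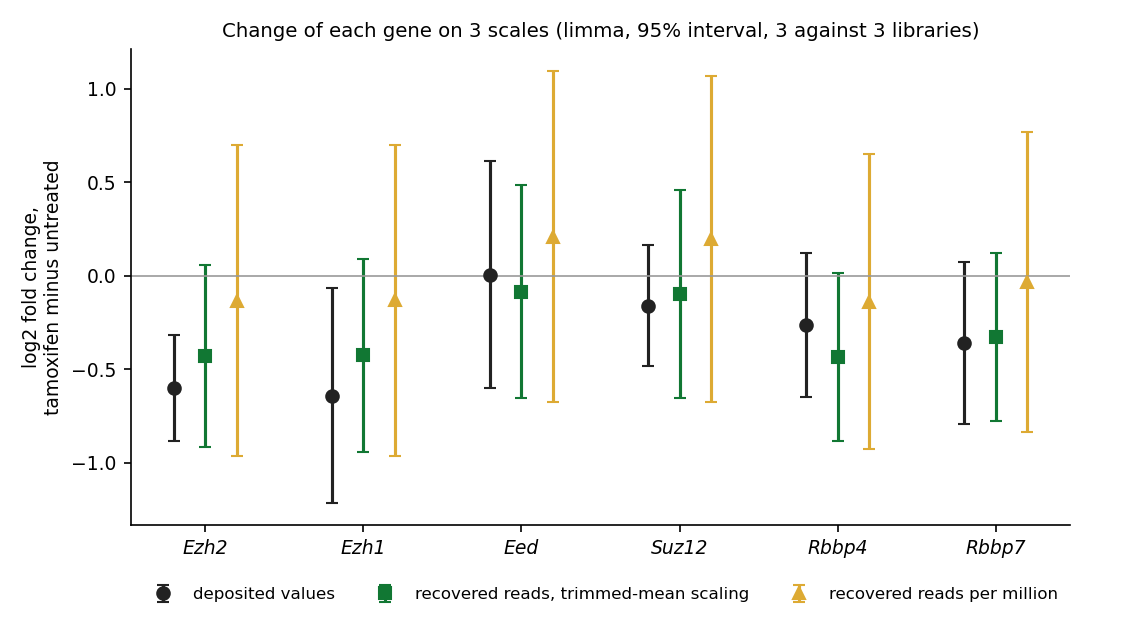
Log2 fold change (tamoxifen minus untreated) of each core PRC2 gene on deposited values, on recovered reads with trimmed-mean scaling and on recovered RPM, with 95% intervals from limma (3 against 3 libraries). On deposited values the intervals of Ezh2 and Ezh1 lie below 0, and on both read scales every interval includes 0.

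Measured against the median of all genes on recovered reads, the 6 genes lay between -0.39 and -0.04. Ezh2 stood at -0.38, Ezh1 at -0.38, Rbbp4 at -0.39 and Rbbp7 at -0.28, and Eed and Suz12 at -0.04 and -0.05. Every 95% interval on this scale included 0, and the intervals of all 6 genes overlapped.

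Levels of different genes were compared only per length, as recovered reads per kilobase of exon, scaled to library depth (RPKM). With the length of all annotated exons, Rbbp7 was highest at 53.4 ± 19.7 in untreated libraries (SD, n = 3). Rbbp4 followed at 28.3 ± 8.28, Eed at 24.3 ± 11.9, Suz12 at 23.2 ± 13.5, Ezh2 at 17.2 ± 8.71 and Ezh1 at 2.64 ± 0.690. Among these neighbours only Ezh2 and Ezh1 had ranges that did not overlap, at 10.1 to 26.96 against 2.11 to 3.42. In tamoxifen libraries Rbbp7 stood at 50.2 ± 10.3, Eed at 27.04 ± 10.7, Rbbp4 at 25.5 ± 6.10, Suz12 at 24.5 ± 7.51, Ezh2 at 14.8 ± 3.87 and Ezh1 at 2.40 ± 0.611. There Rbbp7 was also separate from Eed, the next gene, and Ezh2 from Ezh1.

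Ezh1 was the lowest of the 6 in every library, with either length. The order of the others depended on the length used. The annotated exons of Ezh2 span 6678 bases in all but 2960 in its coding transcripts, against 4945 and 4373 for Suz12. With the shorter lengths Ezh2 (38.9 ± 19.7 in untreated libraries) was above Suz12 (26.3 ± 15.3) in all 3 untreated and all 3 tamoxifen libraries, and with the longer ones below it in all of them. The share of Ezh1 in the summed catalytic genes was then 8.23% ± 1.86 in untreated and 8.24% ± 1.88 in tamoxifen libraries. Here too, Ezh2 transcripts without the floxed exons could not be told apart from full ones.

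The wide spread in these levels ran across genes. All 6 genes were lowest in replicate 3 among the untreated libraries, and in replicate 1 among the tamoxifen libraries. These were the 2 libraries with the largest share of reads in the 10 top genes, 36.7% and 32.3%, against 20.2% to 25.3% in the others. The part of those genes in the low levels was not tested.

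**Figure D4:**
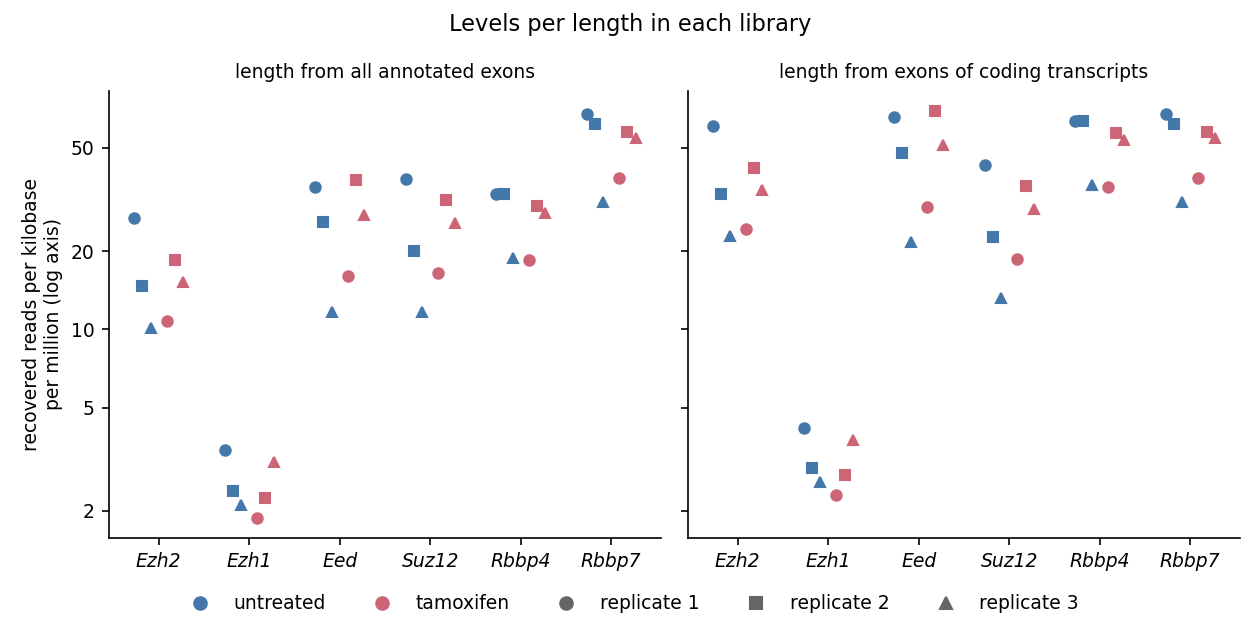
Recovered reads as RPKM (log axis) of each core PRC2 gene in every library, with the length of all annotated exons (left) or of exons in coding transcripts (right); symbols give the replicate. Ezh1 lies lowest in every library in both panels, and Ezh2 and Suz12 change places between the panels.

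Of all genes tested, 9.34% had an unadjusted p under 0.05 in either direction, which is the background for such counts in the lists that follow. The accessory subunits, which steer the core complex to chromatin, lay on both sides of 0. Of 9 measured, 5 were above and 4 below 0, with a median log2 fold change of 0.0040 and none called by limma. Aebp2, a zinc finger subunit that binds next to Suz12, went from 1862 ± 337 to 2929 ± 560 (SD, n = 3), which is 0.65 on the log2 scale (limma adjusted p 0.407), and was the only one with an unadjusted p under 0.05. Epop stood at 0.22, Lcorl at -0.47 and Phf1 at -0.20, the last on 9.83 reads on average. Of the demethylase genes that act against PRC2, Kdm6a stood at -0.42 and Kdm6b at 0.45 (limma adjusted p 0.461 and 0.772). Kdm6b was uneven between tamoxifen libraries, at 1903 ± 1393 against 1208 ± 281 in untreated ones (SD, n = 3 each). Uty, which was kept in the same list and whose activity was not tested, stood at -0.40 (limma adjusted p 0.597). On trimmed-mean scaled reads Kdm6a was at -0.09 and Uty at -0.05.

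The other complexes that hold Rbbp4 or Rbbp7 had no called member either. Of 12 NuRD genes 9 were above 0, with a median of 0.08, which was 0.0092 on trimmed-mean scaled reads. Leaving out 1 library moved that median between 0.02 (without untreated replicate 2) and 0.18 (without untreated replicate 3). Chd3 (0.34), Mta2 (0.75), Chd4 (0.48) and Mbd2 (0.36) had the smallest p, with limma adjusted p between 0.529 and 0.716. On trimmed-mean scaled reads Chd4, the main NuRD remodeller, changed sign to -0.41, and Mta2 was at 0.23. Of 11 Sin3 genes 9 were below 0, with a median of -0.06, and 4 had an unadjusted p under 0.05. These were Brms1 (0.61), the scaffold gene Sin3a (-0.41), Arid4b (-0.40) and Arid4a (-0.90), with limma adjusted p between 0.293 and 0.494. On trimmed-mean scaled reads Arid4b was at -0.06 and Arid4a at -0.44. The Sin3 median ran from -0.16 (without untreated replicate 3) to -0.03 (without untreated replicate 2). In the group of CAF-1, NURF and Hat1 genes, with a median of -0.04, the histone chaperone gene Chaf1b stood at -0.48 (limma adjusted p 0.444), Smarca1 at -0.43, Hat1 at 0.11 and Bptf at -0.04. The median of this group changed sign to 0.03 without tamoxifen replicate 1 and was -0.16 without tamoxifen replicate 2, and on trimmed-mean scaled reads all 5 genes were below 0, Smarca1 at -0.20 and Hat1 at -0.08.

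Ezh2 is a known target of the E2F factors that drive cell cycle genes. Of 20 proliferation genes 12 were below 0 and none was called or had an unadjusted p under 0.05 by limma. On trimmed-mean scaled reads 19 of the 20 were below 0, against 54.0% of all genes tested, and Rrm2 (0.07) was above. Their median was -0.09 on deposited values and -0.29 on trimmed-mean scaled reads, where Ezh2 was at -0.43. Ccnb1 stood at -0.27, Ccne1 at -0.33, Rrm2 at 0.16 and Pcna at -0.33 on deposited values. The summed values of all 20 were 299868 to 341314 in untreated and 275056 to 291727 in tamoxifen libraries. These ranges did not overlap. Abundant genes weigh most in such a sum, and Top2a alone stood at 62459 ± 27869 in untreated libraries (SD, n = 3). How often sums of other genes separate in this way was not counted. Whether the lower Ezh2 values moved with proliferation was not tested.

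**Figure D5:**
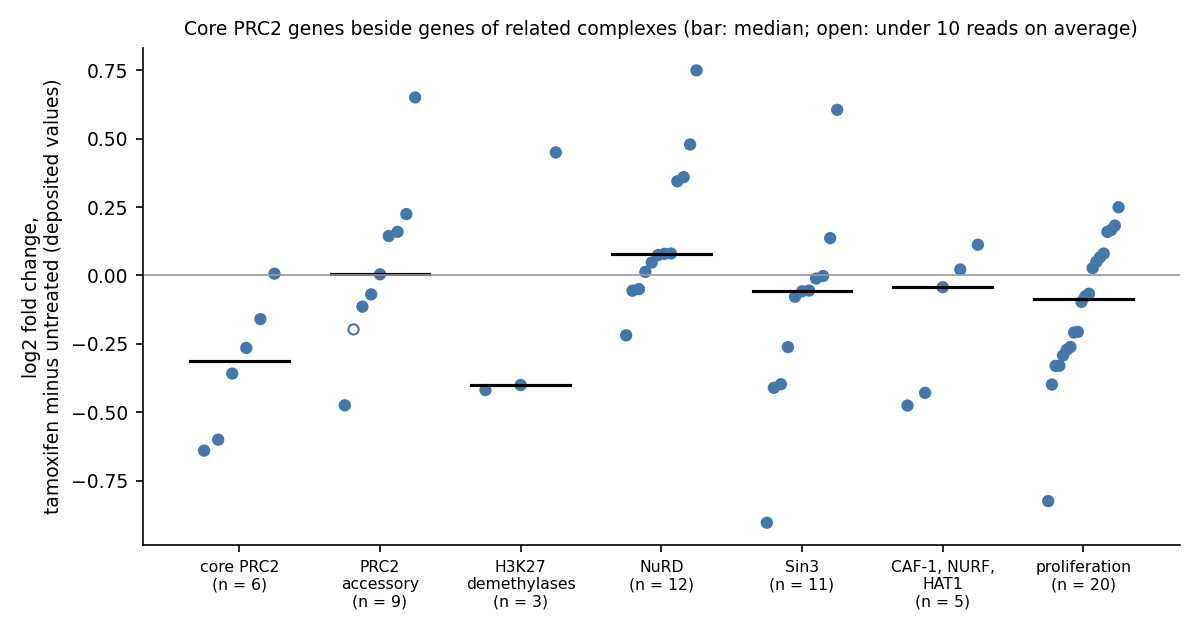
Log2 fold change (tamoxifen minus untreated, deposited values) of each gene, by list; black bars are medians, and the open circle is a gene with under 10 reads on average. The core PRC2 median, which includes the targeted Ezh2, is -0.31, and no gene shown was called.

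The genes whose values were most like those of each member over the 6 libraries were ranked by Pearson correlation of log2 values, among 5245 genes with at least 100 reads on average. This describes 6 libraries that share their depth and normalization with every gene. The values below are the highest among 5245 genes over only 6 libraries. How high the best of that many unrelated genes would reach was not tested, so they do not show shared regulation. For Ezh2 they were Mrpl38 (0.991), Cep68 (0.991), Pds5a (0.982), Vrk1 (0.980) and Dcaf1 (0.977). For Ezh1 they were Herpud1 (0.988) and Dclk2 (0.982), for Eed Lman1 (0.993) and Birc6 (0.988), and for Suz12 Rbm28 (0.980) and Psmd8 (0.973). For Rbbp4 they were Pcna (0.990) and Kars (0.987), and for Rbbp7 Ipcef1 (0.991) and Sec11a (0.990). Ezh1, with 75.2 reads on average, was below the minimum and could not be named for another member. Among the members themselves, Rbbp4 and Rbbp7 had an r of 0.915.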

How the data were processed

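The authors deposited 1 normalized signal value per Ensembl gene and library. The submitters' processing notes name TopHat2, bedtools, DESeq2 and the build mm9. Their roles and versions, the annotation and the counting rule are not given in the sources used here. Each value above 0 equals a constant times k (m + 0.1) / (k + 0.1) with whole k and m, and k was read as the number of reads, since its totals differ between libraries and those of m hardly do. The values are therefore not reads divided by 1 factor per library; what k and m stand for is not given in the sources used here. Of 100305 values 98.8% had 1 solution, and the rest were settled from the gene's other libraries or the ratio nearest 1. Columns were matched to libraries by genotype and replicate number. Log2(value + 1) was compared with limma 3.58.1 (expression trend) in R 4.3.3, with p-values adjusted over all 17427 genes tested, and reads as log2 RPM with 0.5 reads added. Other steps used Python 3.11.15 with scipy 1.17.1. Symbols, lengths and coordinates come from GENCODE vM21 on GRCm38; the files give no coordinates. The fit, the read solver and the permutation test were tested on simulated data. Named genes are the 6 members, up to 4 of smallest p in each list, and those most correlated with a member. The members and lists were chosen with earlier results of these data known. Protein sequences are not shown.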

Additional observations from a re-analysis of the deposited data

How the results depend on the processing

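No member was called by limma in any of the 19 settings run, and Ezh2 had adjusted p-values between 0.157 and 1.0. With 1 library left out its log2 fold change ran from -0.65 to -0.52, that of Ezh1 from -0.80 to -0.48, Suz12 -0.25 to -0.07, Rbbp4 -0.36 to -0.14 and Rbbp7 -0.46 to -0.17. Eed ran from -0.16 to 0.24, negative without untreated replicate 3 or tamoxifen replicate 2 or 3, and was -0.0853 on trimmed-mean scaled reads. Suz12 was 0.20 on recovered RPM, with or without a replicate block, where the median of all genes was 0.25. The ratio of Ezh1 to Ezh2 ran from -0.16 to 0.15 with 1 library left out, and on recovered reads those of Ezh2 and Rbbp7 to Rbbp4 changed sign (0.0053 and 0.11). Causes were not tested.

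The count of 34 called genes became 52 with a pseudocount of 10 or no filter, 62 without the expression trend, 19 with a mean value of at least 100, 15 when genes averaged 10 reads or more, 6 on recovered reads and 5 with trimmed-mean scaling of those. It ran from 66 to 103 with 1 library left out, above 34 for each of the 6. A replicate block gave 0 calls by limma (1393 genes at an unadjusted p under 0.05) on deposited values and 116 on recovered reads. The main test took no pairs because no label says what the replicate numbers mark. Deviations of same-numbered libraries had r of -0.0072, -0.049 and 0.0048 across genes, and 0 of 6 libraries correlated best with their own number. With 3 libraries in each group these correlations cannot exclude pairs. With the block Ezh2 had an adjusted p of 0.526. The settings on recovered reads other than plain RPM, and the 10-read minimum, were chosen after seeing the data. Depth limits Ezh1 most.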
